A study of Homo sapiens with 6 samples.

Results

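The 34 genes described here encode the SR proteins and heterogeneous nuclear ribonucleoproteins (hnRNPs), the 2 main families of proteins that choose splice sites, together with kinases that phosphorylate SR proteins. They were chosen by symbol, and every one of the 34 was matched by its Ensembl identifier to a single row among the 61806 rows of the count matrix. The set holds 10 SR genes (*SRSF1* to *SRSF7*, *SRSF9*, *SRSF10* and *SRSF11*), the SR-like genes *TRA2A* and *TRA2B*, 18 hnRNP genes including *PTBP1*, and the 4 CDC2-like kinase genes *CLK1* to *CLK4*. The choice went by name and function and set no threshold on a measured value.

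Cells of MV4-11, a human acute myeloid leukemia (AML) line that carries a *FLT3* internal tandem duplication, were sequenced in 6 libraries. The 3 libraries labelled shNC carried a control short hairpin RNA, and the 3 labelled shATGL carried one directed at *ATGL* (*PNPLA2*), which encodes a triglyceride lipase. Lentivirus carried both hairpins into this one line. The labels say neither which hairpin the shATGL libraries carried nor whether the libraries of a group came from separate transductions. P-values therefore measure the spread between these libraries, which may be technical.

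Total counts ranged from 59674064 to 74808280 per library, and between 24360 and 25959 genes had a count. In CPM (counts scaled to the normalized size of each library), *PNPLA2* was at 101, 97.0 and 107 in the shNC libraries 1, 2 and 3 and at 102, 98.1 and 104 in the shATGL libraries, a log2 fold change of -0.01 (standard error 0.06, edgeR adjusted p = 0.979). The targeted mRNA was thus not detectably lower in the libraries labelled shATGL, and every direction below is that of the labels. All 10 myeloid AML markers were detected, with a summed level of 1758 to 1893 CPM, of which *LYZ* took 715 to 889 CPM. *MPO* at 3.5 to 4.6 CPM and *MEIS1* at 3.0 to 5.0 CPM were low, below the B-cell marker *PAX5* at 6.3 to 7.8 CPM. T-cell markers summed to at most 0.108 CPM, erythroid markers to at most 0.110 CPM and stromal or epithelial markers to at most 0.252 CPM. B-cell markers summed to 11.2 to 13.6 CPM, of which *PAX5* took most and *MS4A1* was at 0. The library shATGL 3 stood apart from shATGL 1 and 2. Over genes, the chi-square statistic per degree of freedom was 12.3 between shATGL 1 and 2 and 11.3 to 26.2 among the shNC libraries, but 84.0 and 87.6 between shATGL 3 and the other libraries of its group. No 2 libraries differed by so little that they could be a single library under both names. The counts of members that passed a test are given below with and without shATGL 3.

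SR proteins bind exonic enhancer sequences through RNA recognition motifs and recruit the spliceosome through domains rich in arginine and serine, whereas hnRNPs bind nascent transcripts and often block splice sites, so the balance of both families sets the inclusion of many exons. CLK kinases phosphorylate the arginine-serine domains and release SR proteins from nuclear speckles. Many of these genes limit their own protein level through poison exons or retained introns that send the transcript to nonsense-mediated decay (NMD) or keep it in the nucleus, and mutations of splicing factors such as *SRSF2* recur in myeloid neoplasms. The counts are per gene, so they give the amount of RNA of each regulator and not the exons included in it.

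RefSeq promoter windows (GRCh38.p14), of which the 250 bases before the listed start were used, matched 31 of the 34 genes and not *SRSF2*, *TRA2A* and *HNRNPA1*. By position, 12 of the 31 windows, those of *SRSF11*, *HNRNPA2B1* and the kinases *CLK2* to *CLK4* among them, lay wholly inside the span of the gene in GENCODE 29, 14 lay partly inside it and 5 outside it. Their median GC content was 65.6%, against 58.0% over 27305 windows, and the median number of CpG pairs was 26 against 11. A GC box (GGGCGG on either strand) was present in 20 of the 31 windows, 64.5% against 42.3% of all windows, and a CCAAT box (CCAAT on either strand) in 14, 45.2% against 33.04%. The ETS letters CCGGAAG were in 5 windows (16.1% against 8.82%) and a TATA box (TATAAA) in 4 (12.9% against 11.1%). The palindromic CGCG element was in the windows of *SRSF10* and *HNRNPK* (6.45% against 0.410%). No window held the palindromic NRF1 element or the CRE letters TGACGTCA, which were in 1.13% and 1.77% of all windows. These are matches of letters on either strand, and other annotated starts of the same genes were not searched.

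Below are the windows of 4 genes whose RNA is described in detail further on, a pair that was higher in shATGL 1 and 2 (*HNRNPA2B1* and *SRSF11*) and a pair that was lower (*SRSF3* and *HNRNPC*). Each is written 5′ to 3′ on the strand of the gene, and capitals mark GC, CCAAT and TATA boxes on either strand. TATA letters are in the windows of *SRSF11*, *SRSF3* and *HNRNPC*, and CCAAT letters in those of *HNRNPA2B1*, *SRSF3* and *HNRNPC*. The windows of *HNRNPA2B1* and *SRSF11* lie inside the span of their genes.
HNRNPA2B1 (chr7:26200747-26200996, minus strand, GRCh38.p14): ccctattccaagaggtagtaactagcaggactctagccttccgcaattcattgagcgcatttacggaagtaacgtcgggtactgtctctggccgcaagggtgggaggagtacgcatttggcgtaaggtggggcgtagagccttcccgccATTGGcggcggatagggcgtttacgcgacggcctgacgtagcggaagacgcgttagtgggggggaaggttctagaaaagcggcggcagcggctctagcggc
SRSF11 (chr1:70221130-70221379, plus strand, GRCh38.p14): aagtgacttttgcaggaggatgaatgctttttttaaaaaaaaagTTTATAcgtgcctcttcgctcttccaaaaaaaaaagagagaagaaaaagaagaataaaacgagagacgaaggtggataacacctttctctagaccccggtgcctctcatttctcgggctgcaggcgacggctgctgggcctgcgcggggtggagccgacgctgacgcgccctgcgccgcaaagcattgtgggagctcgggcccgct
SRSF3 (chr6:36594112-36594361, plus strand, GRCh38.p14): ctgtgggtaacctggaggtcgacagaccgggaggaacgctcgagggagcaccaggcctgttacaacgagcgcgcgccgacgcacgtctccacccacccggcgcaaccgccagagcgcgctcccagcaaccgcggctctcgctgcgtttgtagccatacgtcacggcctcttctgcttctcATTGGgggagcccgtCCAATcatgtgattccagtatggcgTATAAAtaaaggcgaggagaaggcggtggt
HNRNPC (chr14:21269443-21269692, minus strand, GRCh38.p14): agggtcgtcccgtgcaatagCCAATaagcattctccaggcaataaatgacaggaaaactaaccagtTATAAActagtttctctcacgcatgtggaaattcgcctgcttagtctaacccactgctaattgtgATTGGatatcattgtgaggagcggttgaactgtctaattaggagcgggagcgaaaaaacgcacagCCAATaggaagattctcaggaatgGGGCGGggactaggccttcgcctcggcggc

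All 34 genes were expressed in every library, with at least 1288 counts for any member in any library, and all passed the filter on low counts. For the order of levels, counts were divided by the length of the principal transcript and scaled to the same total in each library, a TPM-like unit in which genes can be compared. On this scale *HNRNPC*, which packages nascent transcripts, was the most abundant member with a mean of 887 over the 6 libraries, followed by *HNRNPA2B1* at 684, *SRSF1* at 650, *HNRNPK* at 581, *HNRNPA1* at 538 and *PTBP1* at 481. *SRSF1*, the founding SR protein, was the most abundant SR gene and *SRSF11* the least, at 73.5. *TRA2B* lay at 204 and *TRA2A* at 56.9.

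The lower end of the order held genes of every class, with *HNRNPA0* at 64.0 and *HNRNPH2* at 56.95 among the kinases. *CLK3* and *CLK2* were at 83.5 and 79.4 and *CLK1* at 58.0, while *CLK4*, at 23.6, and *HNRNPLL*, a paralog of *HNRNPL* known for *PTPRC* (CD45) exon choice in lymphocytes, at 22.1 were the least abundant members. Of the 33 pairs of neighbours in the order, 4 had ranges over the 6 libraries that did not overlap: *SRSF1* lay above *HNRNPK*, *SRSF2* above *HNRNPL*, *TRA2B* above *SRSF7* and *TRA2A* above *CLK4*. The other neighbours overlapped. The order rested on the length used. With the length of all annotated exons of a gene, *HNRNPA1* came first at 650 and *HNRNPC* fell to 310.

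**Figure D1:**
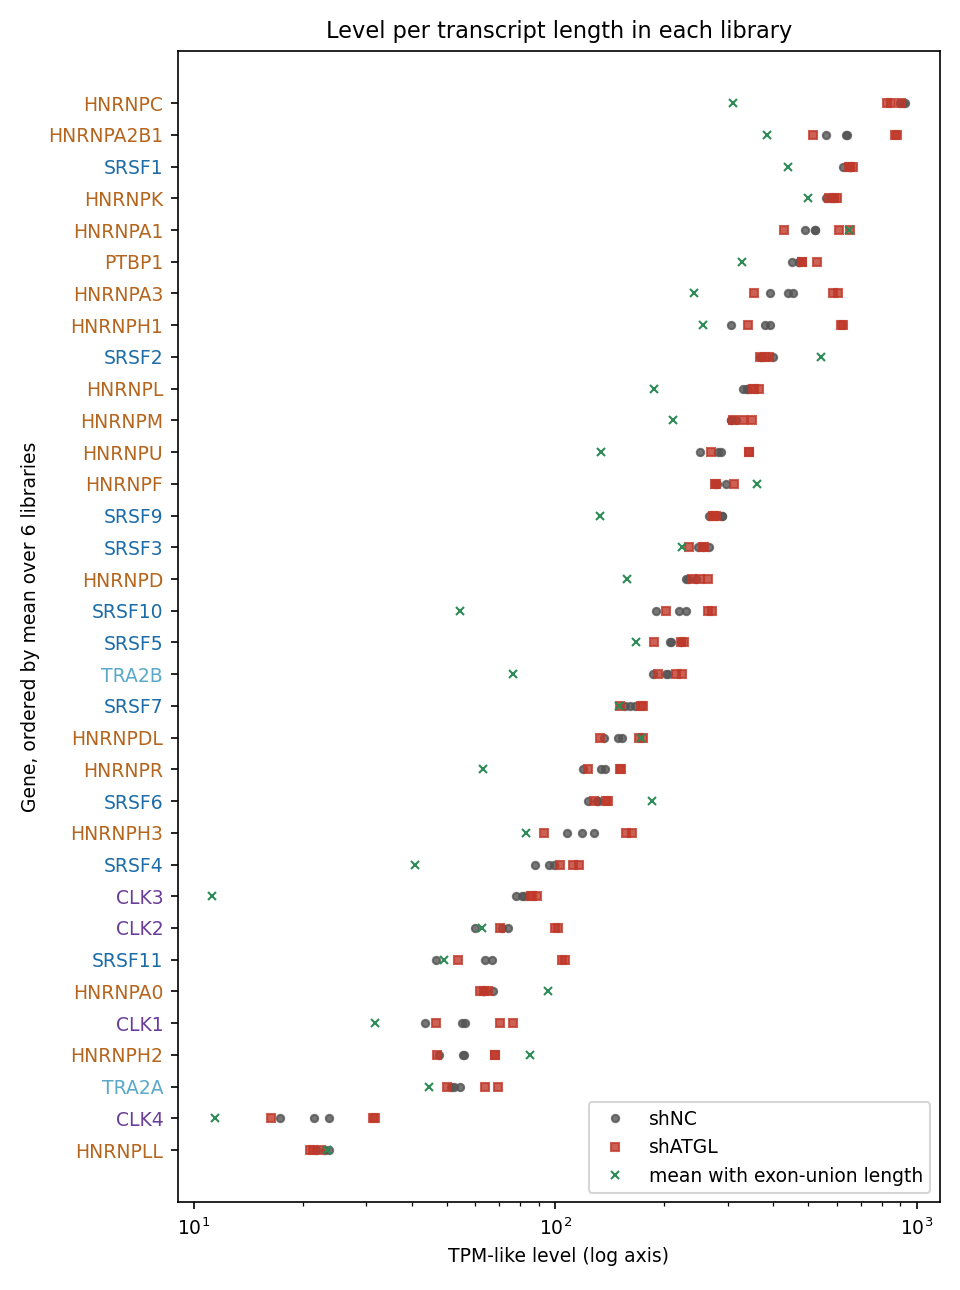
TPM-like level (log axis, counts per transcript length, scaled to one total) of each gene in each library, ordered by the mean over 6 libraries, with shNC as grey circles, shATGL as red squares and the mean under exon-union length as a green cross. *HNRNPC* leads at a mean of 887 and *HNRNPLL* is last at 22.1, and the crosses of long genes such as *CLK3* lie far to the left.

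By class, the summed CPM differed in which libraries were high. The 18 hnRNP genes summed to 9765, 9640 and 9591 CPM in shNC 1, 2 and 3 and to 10375, 10231 and 8892 CPM in shATGL 1, 2 and 3, so shATGL 1 and 2 were the highest and shATGL 3 the lowest library. The 10 SR genes summed to 3168, 3042 and 3121 CPM in shNC and to 2967, 2957 and 2902 CPM in shATGL, and these groups did not overlap. The lower SR sum was shown in CPM only. On the TPM-like scale *SRSF1*, the most abundant SR gene, had a mean of 644 in shNC and 656 in shATGL. Of the other SR genes some were lower and some higher in mean on that scale. The 4 kinases summed to 236, 232 and 220 CPM in shNC and to 271, 274 and 217 CPM in shATGL, with shATGL 3 again lowest. The ratio of summed SR and TRA2 CPM to summed hnRNP CPM, in counts and not per length, was 0.362, 0.353 and 0.363 in shNC, 0.321 and 0.325 in shATGL 1 and 2 and 0.364 in shATGL 3. Together the 34 genes took between 1.24% and 1.44% of all counts of a library.

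With all 6 libraries, no splicing regulator passed the test between the groups. In bulk RNA of a cell line, fewer cells with a transcript and less of it per cell cannot be told apart. Of the 34 members, 0 had an edgeR adjusted p under 0.05 and 0 were called at that threshold with a fold change of at least 2, against 1 of 19149 genes tested (0.00522%), and the smallest adjusted p of a member was 0.392. At an unadjusted p under 0.05 there were 3 members, all lower in shATGL, namely *SRSF3*, *HNRNPC* and *HNRNPLL*. This is 8.82% of the members against 11.7% of all genes tested (5.94% lower), and 5.77% of all genes were higher at that level. Among the 6037 genes at or above the lowest member by mean CPM the share was 18%, with 0 genes at an adjusted p under 0.05. DESeq2 gave 5 members at an unadjusted p under 0.05, against 7.02% of 31959 genes, which include genes of low counts that the edgeR filter removed. Adjusted, it gave 0 members, against 0.555% of the 16045 genes with an adjusted p. Log2 fold changes ran from -0.22 to 0.44, with 13 above and 21 below 0. Their median was -0.03, against 0.01 over all genes, of which 51.9% were above 0. By class the median was -0.10 for SR genes, -0.03 for hnRNP genes, 0.01 for both TRA2 genes and 0.19 for the CLK genes.

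Of the SR genes, 4 lay lower in CPM in every shATGL library, and none of them passed the test. *SRSF3*, the smallest SR protein and a factor in mRNA export (chr6:36594353-36605600 in GENCODE 29 for GRCh38), was at 589, 560.1 and 584 CPM in shNC and at 513, 514 and 504 CPM in shATGL. Every shATGL library lay below every shNC library, and shATGL 3 was as low as the other libraries of its group. The log2 fold change of *SRSF3* was -0.18 (standard error 0.05, edgeR adjusted p = 0.392, exact two-sided permutation p = 0.1, the smallest that 3 against 3 libraries can give). *SRSF5*, *SRSF6* and *SRSF7* also lay lower in every shATGL library, with log2 fold changes of -0.14, -0.05 and -0.09 and edgeR adjusted p-values of 0.453, 0.671 and 0.535. Without shATGL 3 they were -0.09, -0.05 and -0.06, with edgeR adjusted p-values of 0.278, 0.452 and 0.420.

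*SRSF1*, which promotes exon inclusion and acts in export and translation, was at 518, 513 and 526 CPM in shNC and at 468, 467 and 514 CPM in shATGL. *SRSF2*, a speckle protein and a recurrent mutation target in myeloid disease, was at 605, 555 and 591 CPM in shNC and at 519, 504 and 573 CPM in shATGL. For both genes shATGL 1 and 2 lay below every shNC library while shATGL 3 lay above a shNC library, and the log2 fold changes were -0.10 (standard error 0.06) and -0.13 (standard error 0.07) with edgeR adjusted p-values of 0.506 and 0.472. *SRSF4* was the only member whose shATGL libraries were all above the shNC libraries, at 119.9, 122 and 117 CPM in shNC and 131, 127 and 125 CPM in shATGL, a log2 fold change of 0.09 (standard error 0.05, edgeR adjusted p = 0.525).

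Among the hnRNPs, the 2 members at unadjusted p under 0.05 were also lower. *HNRNPC* (chr14:21209136-21269494), which binds uridine-rich stretches and guards against the inclusion of Alu-derived exons, was at 832, 797 and 875 CPM in shNC and at 684, 675 and 791 CPM in shATGL. The groups did not overlap, but shATGL 3 was only just below the lowest shNC library. The log2 fold change of *HNRNPC* was -0.22 (standard error 0.08, edgeR adjusted p = 0.392, exact permutation p = 0.1). *HNRNPLL* (chr2:38561978-38603586) was at 50.2, 50.9 and 50.7 CPM in shNC and at 44.1, 42.2 and 44.5 CPM in shATGL, with little spread in either group and a log2 fold change of -0.21 (standard error 0.06, edgeR adjusted p = 0.392, exact permutation p = 0.1). *HNRNPK*, a poly(C)-binding protein, followed the same direction with 905, 882 and 918 CPM in shNC and 833, 822 and 861 CPM in shATGL, a log2 fold change of -0.10 (standard error 0.05, edgeR adjusted p = 0.450).

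In all, 8 members had groups that did not overlap in CPM, 1 higher (*SRSF4*) and 7 lower (*SRSF3*, *SRSF5*, *SRSF6*, *SRSF7*, *HNRNPC*, *HNRNPK* and *HNRNPLL*). This is 23.5% of the members, against 17.3% of all genes tested (7.93% higher and 9.38% lower). Among the 6037 genes at least as abundant as the lowest member the share was 23.4%, of which 16.3% lower and 7.07% higher, close to that of the members. On the TPM-like scale the groups of all 7 lower members overlapped, and those of *SRSF4* did not. *HNRNPC* was there at 902.75 in shATGL 3 against 899.2 in shNC 2, and *SRSF6* had means of 128 in shNC and 135 in shATGL.

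**Figure D2:**
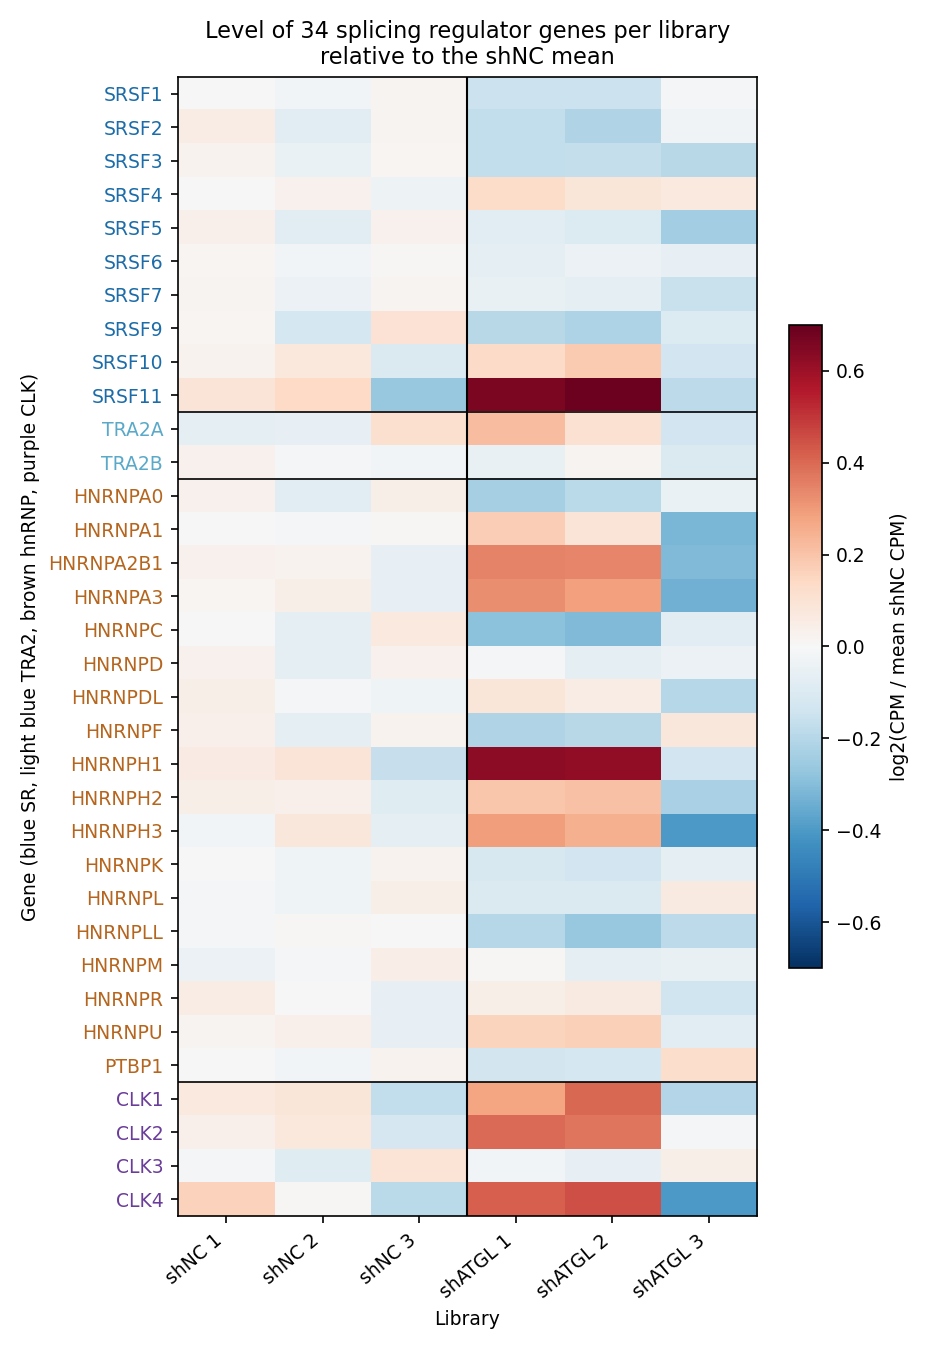
Log2 ratio of the CPM of each gene in each library to its mean over the shNC libraries, from blue (lower) to red (higher), with genes in rows by class and libraries in columns. *HNRNPH1* and *SRSF11* are deep red in shATGL 1 and 2 and pale blue in shATGL 3, while *SRSF3* and *HNRNPLL* are blue in all 3 shATGL libraries.

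The largest differences between libraries among the members were between shATGL 1 or 2 and either shATGL 3 or shNC 3. *HNRNPH1* (chr5:179614178-179634784), which binds G-rich runs, was at 729, 744 and 625 CPM in shNC, at 1079 and 1076 CPM in shATGL 1 and 2, and at 637 CPM in shATGL 3. *SRSF11* (chr1:70205682-70253052), an SR protein of the 3′ splice site, was at 126, 130.3 and 98.5 CPM in shNC, at 186 and 190.4 CPM in shATGL 1 and 2, and at 104 CPM in shATGL 3. In both genes shNC 3 was the lowest library, shATGL 3 lay inside the shNC range, and the groups overlapped. Over 6 libraries the log2 fold changes were 0.41 for *HNRNPH1* (standard error 0.19, edgeR adjusted p = 0.445) and 0.44 for *SRSF11* (standard error 0.23, edgeR adjusted p = 0.478).

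*HNRNPA2B1*, *HNRNPA1*, *HNRNPA3* and *HNRNPH3* lay below the controls in shATGL 3, while *HNRNPA0* lay below them in shATGL 1 and 2 and inside their range in shATGL 3. *HNRNPA2B1* (chr7:26173057-26201529), which also sorts RNAs for transport, was at 1166, 1161 and 1094 CPM in shNC, at 1449.5 and 1443 CPM in shATGL 1 and 2, and at 921 CPM in shATGL 3. *HNRNPA1*, a repressor of exon inclusion that opposes *SRSF1*, was at 1127, 1117 and 1129 CPM in shNC, at 1269 and 1195 CPM in shATGL 1 and 2, and at 901 CPM in shATGL 3. For these genes shATGL 1 and 2 lay above and shATGL 3 below every control, and the log2 fold changes were 0.16 for *HNRNPA2B1* (standard error 0.16, edgeR adjusted p = 0.706) and -0.004 for *HNRNPA1* (standard error 0.12, edgeR adjusted p = 0.993). *HNRNPA3* and *HNRNPH3* were likewise above every control in shATGL 1 and 2, with 373 and 111 CPM in shATGL 3 against at least 452 and 140.1 CPM in any shNC library.

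*PTBP1*, the polypyrimidine tract-binding repressor, went the other way. It was at 781, 773 and 796 CPM in shNC, at 717 and 719 CPM in shATGL 1 and 2, and at 852 CPM in shATGL 3, the highest library of all. Its log2 fold change was -0.04 (standard error 0.08, edgeR adjusted p = 0.863). *HNRNPF* and *HNRNPL* shared this order, with shATGL 1 and 2 below and shATGL 3 above every shNC library.

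The kinases other than *CLK3* were also highest in shATGL 1 and 2. *CLK1* was at 54.4, 55.0 and 45.9 CPM in shNC, at 62.7 and 68.4 CPM in shATGL 1 and 2, and at 44.9 CPM in shATGL 3. *CLK4* was at 31.7, 28.4 and 24.8 CPM in shNC, at 37.8 and 38.7 CPM in shATGL 1 and 2, and at 21.4 CPM in shATGL 3. Both had shATGL 3 as their lowest library, and shNC 3 was the lowest control. *CLK3*, at 77.8, 74.2 and 84.0 CPM in shNC and 77.6, 75.6 and 80.9 CPM in shATGL, had the narrowest range of the kinases. The log2 fold changes were 0.18 for *CLK1*, 0.21 for *CLK4*, 0.27 for *CLK2* and -0.01 for *CLK3*, with edgeR adjusted p-values of 0.656, 0.719, 0.435 and 0.956.

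Neither TRA2 gene separated the groups. *TRA2A* was at 49.6, 49.9 and 56.2 CPM in shNC and at 60.3, 55.8 and 47.3 CPM in shATGL, and *TRA2B* at 317, 308 and 307 CPM in shNC and at 299.8, 315 and 289 CPM in shATGL. Both had shATGL 3 as the lowest library.

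The remaining members had overlapping groups and edgeR adjusted p-values of at least 0.431. They are the SR genes *SRSF9* and *SRSF10*, a repressor of splicing once dephosphorylated, and the hnRNP genes *HNRNPA0*, *HNRNPA3*, *HNRNPD* and *HNRNPDL*, which bind AU-rich RNA, *HNRNPF*, *HNRNPH2*, *HNRNPH3*, *HNRNPL*, *HNRNPM*, *HNRNPR* and *HNRNPU*. Their log2 fold changes ran from -0.17 for *SRSF9* to 0.12 for *HNRNPA3*. The steadiest was *HNRNPD*, whose highest library was 1.07 times its lowest, while *HNRNPH3* varied 1.62-fold and *HNRNPA3* 1.58-fold over the 6 libraries.

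**Figure D3:**
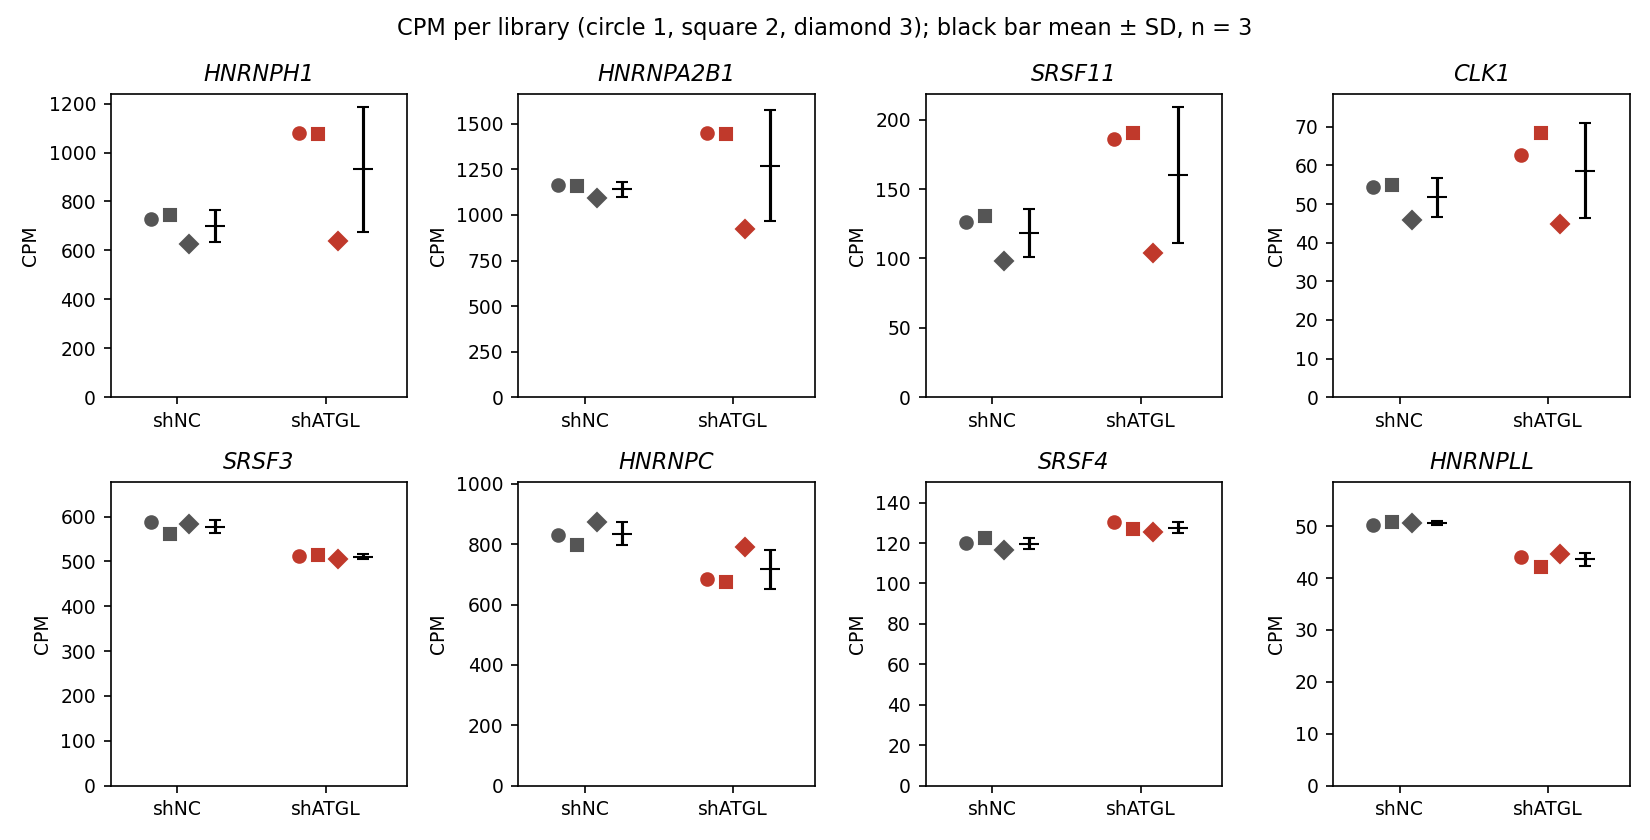
CPM of 8 genes in each library (circle, square and diamond for replicates 1, 2 and 3; grey shNC, red shATGL), with the mean and SD of each group as a black bar (n = 3) on axes that start at 0. In the upper row the shATGL 3 diamond lies within or below the range of the shNC points while shATGL 1 and 2 lie above them, as in *HNRNPH1* with 637 against 1079 and 1076 CPM, and in the lower row the groups do not overlap.

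Counted over all members, shATGL 1 and 2 agreed closely and shATGL 3 did not. The median absolute difference between shATGL 1 and 2 was 0.03 on the log2 scale, while the median absolute difference between their mean and shATGL 3 was 0.21. The 2 libraries were both above every shNC library for 14 members, and shATGL 3 was not above them in 13 of these and was below every shNC library in 10. They were both below every shNC library for 14 other members, and in 7 of these shATGL 3 was not. Each count is 41.2% of the members. Over all genes tested, shATGL 1 and 2 were both above every shNC library for 24.9% and both below for 24.1%, and over the 6037 abundant genes for 26.4% and 45.8%. The share below was thus under that of the abundant genes. With all 3 shATGL libraries, 7.93% of all genes tested lay above every shNC library and 9.38% below. Over the abundant genes these shares were 7.07% and 16.3%, so shATGL 3 departed from shATGL 1 and 2 in many other genes too. No share over all genes was taken for shATGL 3 below every control. For 28 of the 34 members the range within shATGL was larger than the difference between the groups, and for 17 the range within shNC was. The same was not counted over all genes, so these counts do not set the members apart.

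The SD of log2 CPM showed the same. Its median over the members was 0.05 within shNC and 0.12 within shATGL, against 0.15 and 0.19 over all genes tested and 0.07 and 0.11 over the 6037 abundant genes. In a principal component analysis of the 34 genes the first component took 86.1% of the variance. It placed shATGL 1 and 2 at 1.07 and 1.09, shNC 1 and 2 at -0.18 and -0.10, shNC 3 at -0.78 and shATGL 3 at -1.08. The shATGL libraries thus lay at both ends and the shNC libraries between them. The same order held over all genes tested, where the first component took 28.4% of the variance. There shATGL 1, 2 and 3 were at 44.5, 45.9 and -39.3, and shNC 1, 2 and 3 at -14.8, -3.40 and -33.0. The order of the libraries is thus not particular to the members. Part of this order was shared by shNC 3, which lay lowest among the controls for *HNRNPH1*, *SRSF11*, *CLK1*, *CLK2* and *CLK4*.

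Without shATGL 3, many members passed the test. With shATGL 1 and 2 against the 3 shNC libraries, 16 of the 34 members had an edgeR adjusted p under 0.05, 47.1% against 14% of the genes tested (7.94% higher, 6.07% lower) and 30.4% of the 6037 abundant genes, and 0 reached a fold change of 2. The abundant genes share only a floor with the members, set by the lowest of them. They were not matched to the members in level, so the shares are not like for like. The 9 higher members were *SRSF11* (log2 fold change 0.67), *HNRNPH1* (0.62), *CLK4* (0.43), *CLK2* (0.39), *HNRNPA2B1* (0.34), *CLK1* (0.34), *HNRNPA3* (0.31), *HNRNPH3* (0.27) and *HNRNPU* (0.16), the last a scaffold protein of the nuclear matrix. The 7 lower members were *HNRNPC* (-0.30), *HNRNPLL* (-0.23), *HNRNPA0* (-0.21), *HNRNPF* (-0.20), *SRSF2* (-0.19), *SRSF3* (-0.17) and *SRSF1* (-0.15). By class, 1 SR gene was higher and 3 were lower, 5 hnRNP genes were higher and 4 lower, and 3 of the 4 kinases were higher. No reason given in the labels sets shATGL 3 aside, and leaving out any other single library gave 0 such members.

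A fit that weights libraries by quality lay in between. In limma voom, shATGL 3 received a weight of 0.248 and shNC 3 one of 0.691, against 1.28 to 1.75 for the other libraries, and 10 members had an adjusted p under 0.05, 29.4% against 10.8% of all genes (5.57% higher, 5.27% lower) and 21.5% of the abundant ones. *SRSF11*, *HNRNPH1* and *CLK2* were higher, and *SRSF1*, *SRSF2*, *SRSF3*, *HNRNPA0*, *HNRNPC*, *HNRNPK* and *HNRNPLL* were lower.

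Over all genes tested, the log2 fold change rose with transcript length (Spearman's rho 0.22 over 18566 genes) and fell with GC content (rho -0.16). Genes are not independent replicates, and over the 34 members the same values were -0.09 and -0.05. With length and GC trends corrected and shATGL 3 left out, an alternative chosen after seeing the data, 18 members had an edgeR adjusted p under 0.05, 6 higher and 12 lower, against 17.2% of all genes (6.44% higher, 10.7% lower). The share over the abundant genes, which was the larger one in the fit without the correction, was not taken. *HNRNPH1* (0.66), *CLK2* (0.50), *SRSF11* (0.37), *HNRNPA3* (0.31) and *HNRNPA2B1* (0.28) were still among the higher, whereas *CLK1*, *CLK4* and *HNRNPH3* no longer passed and *HNRNPU* turned to -0.12. Of the 7 lower members, *SRSF1* no longer passed, at -0.02 (edgeR adjusted p = 0.750). With the correction and all 6 libraries, 0 members had an adjusted p under 0.05.

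**Figure D4:**
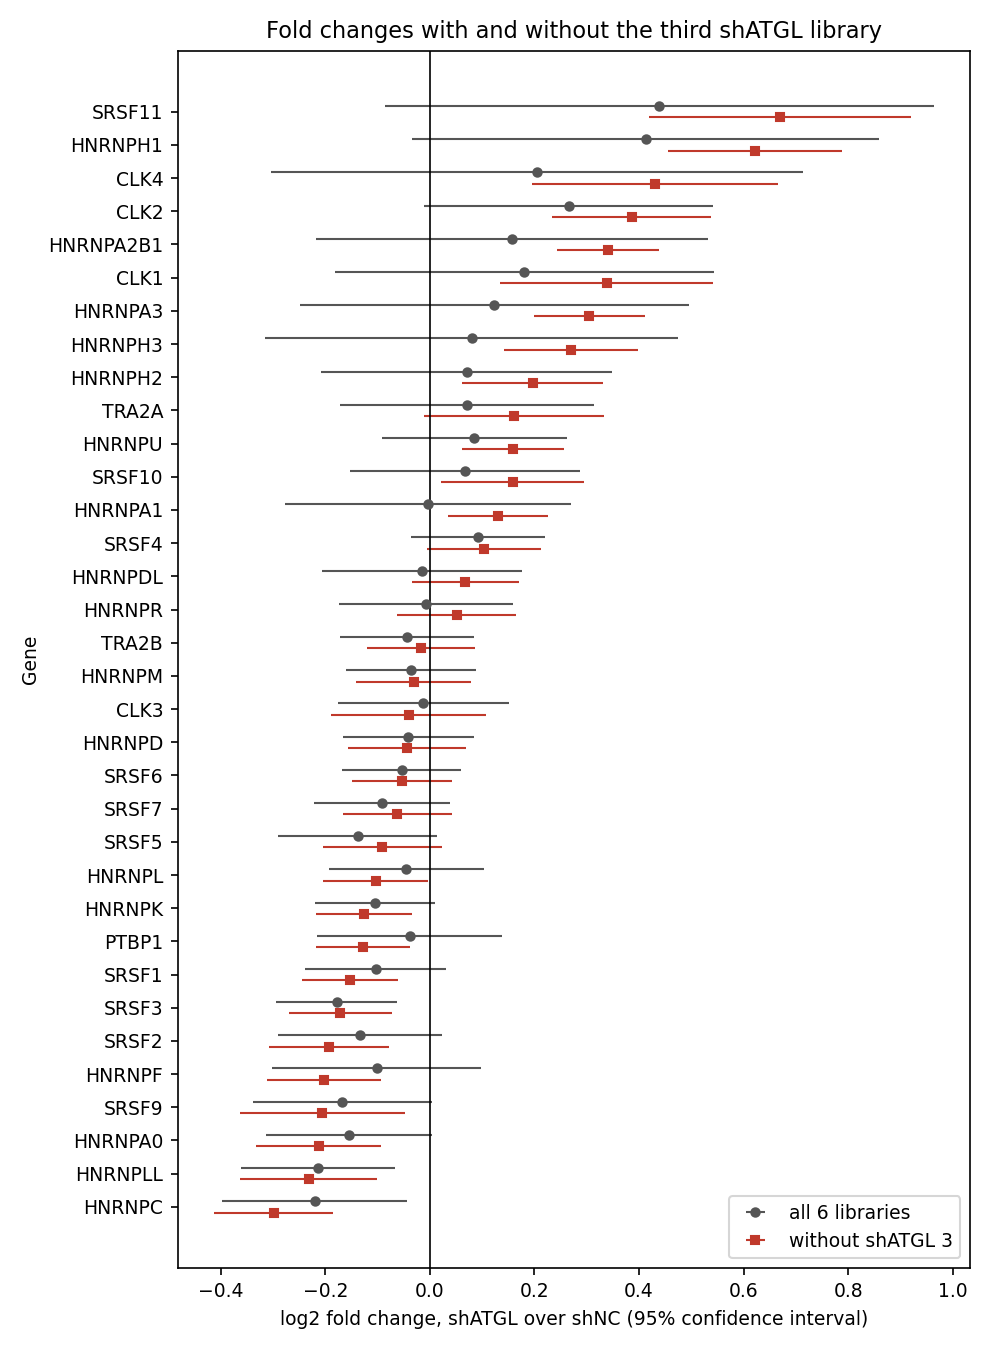
Log2 fold change of shATGL over shNC with its 95% confidence interval (edgeR) for each gene, with all 6 libraries in grey and without shATGL 3 in red. The grey intervals of *HNRNPH1* (0.41) and *SRSF11* (0.44) include 0 and their red ones (0.62 and 0.67) do not, while *SRSF3* barely moves between the fits (-0.18 and -0.17).

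Several members share sequence or position with other rows of the table, and because the strand setting of the counting is not given, reads on such stretches could have gone to either gene. The exons of *CLK3* overlap those of *EDC3* on the opposite strand, whose counts amounted to 52.6% of those of *CLK3*. The corresponding shares were 22.6% for *CBX3* and *HNRNPA2B1*, 19.6% for *GATC* and *SRSF9*, and 4.75% for *MFSD11* and *SRSF2*. *HNRNPH2* shares exons with the read-through gene *RPL36A-HNRNPH2*, which was at 16.4 to 20.4 CPM in 5 libraries and at 0 in shATGL 3. The summed level of both rows was 81.6, 81.1 and 75.3 CPM in shNC and 89.5, 92.4 and 53.4 CPM in shATGL. Rows named as pseudogenes of a member held few counts, at most 3.73% of the parent's for the 74 such rows of *HNRNPA1* and 1.77% for the 9 of *HNRNPC*.

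The members carried more annotated transcripts than other genes, a median of 12 against 7 over 13780 protein-coding genes tested, and more retained-intron transcripts, a median of 3 against 1. Neither number ran with the fold change over the 34 members (rho 0.15 and 0.02).

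The other genes of the splicing machinery gave no adjusted call either. Of 43 further splicing regulators tested, 0 had an edgeR adjusted p under 0.05. At an unadjusted p under 0.05, 2 were higher and 3 lower, against 5.77% and 5.94% of all genes. Among the higher was *SRRM2*, the core protein of nuclear speckles, at 725, 719 and 659.9 CPM in shNC and at 843, 872 and 852 CPM in shATGL (log2 fold change 0.29, standard error 0.06, edgeR adjusted p = 0.392), and here shATGL 3 lay with the others of its group. *RBM5*, a spliceosome-associated regulator, had a log2 fold change of 0.21, *HNRNPAB* one of -0.15 and the paraspeckle protein gene *PSPC1* one of -0.17. Without shATGL 3, 8 of 44 were higher and 5 lower at an edgeR adjusted p under 0.05, *SRRM2* (0.29), *RBM5* (0.25) and *PSPC1* (-0.23) among them. In that fit 14% of all genes and 30.4% of the 6037 abundant genes passed.

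Of the 15 other genes for kinases and phosphatases of SR proteins, 1 was lower at an unadjusted p under 0.05, against 5.94% of all genes. It was *PPP1CC*, a catalytic subunit of protein phosphatase 1 (log2 fold change -0.14, edgeR adjusted p = 0.410, and -0.16 with an adjusted p of 0.0682 without shATGL 3). *PPP1CA*, *CDK12* and *CDK11A* followed with log2 fold changes of -0.14, 0.13 and 0.11. Without shATGL 3, 14% of all genes and 30.4% of the 6037 abundant genes had an edgeR adjusted p under 0.05. In this list the single such gene was *PRPF4B*, a kinase of spliceosome proteins chosen here after its values were seen. It was at 47.9, 52.0 and 36.0 CPM in shNC, 76.1 and 81.8 CPM in shATGL 1 and 2, and 31.2 CPM in shATGL 3, which was again the lowest library.

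Among the 58 core spliceosome genes more were lower than higher. At an unadjusted p under 0.05, 15 were lower and 2 higher, against 5.94% and 5.77% of all genes. Of the 6037 abundant genes, 771 were lower and 313 higher at that level, so these also leaned to lower. The median log2 fold change of the list was -0.08, against 0.01 over all genes and -0.04 over the abundant genes. The bearing of the length and GC trends on this list was not tested. Of the 58 genes, 0 had an edgeR adjusted p under 0.05. The 4 with the smallest p-values encode Sm and LSm ring proteins, *LSM5* (-0.29), *SNRPD2* (-0.29), *LSM3* (-0.24) and *SNRPE* (-0.28), each with an edgeR adjusted p of 0.392. *LSM5* was at 56.1, 56.4 and 62.6 CPM in shNC and at 49.4, 48.2 and 45.3 CPM in shATGL, so the groups did not overlap. Without shATGL 3, 12 were higher and 14 lower at an edgeR adjusted p under 0.05, a level that 14% of all genes and 30.4% of the 6037 abundant genes passed. *SNRPD2* at -0.36, *LSM3* at -0.26 and *LSM5* at -0.26 were among the lower. *SNRPE* did not pass (-0.26, edgeR adjusted p = 0.0682).

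NMD factors degrade the poison-exon transcripts of many SR and hnRNP genes. Of 16 tested, 2 were higher and 1 lower at an unadjusted p under 0.05, against 5.77% and 5.94% of all genes. *UPF2*, the bridge between the UPF proteins, was at 38.2, 43.5 and 35.8 CPM in shNC, at 89.7 and 91.7 CPM in shATGL 1 and 2, and at 33.5 CPM in shATGL 3. *SMG1*, the kinase of UPF1, was at 69.98, 69.95 and 55.2 CPM in shNC, at 105 and 114 CPM in shATGL 1 and 2, and at 63.5 CPM in shATGL 3. Both had shATGL 3 inside or below the shNC range, and the log2 fold changes were 0.87 (standard error 0.34, edgeR adjusted p = 0.402) and 0.53 (standard error 0.21, edgeR adjusted p = 0.408). *MAGOH* had a log2 fold change of -0.22 and *UPF3A* one of 0.26. Without shATGL 3, 4 of the 16 were higher and 0 lower at an edgeR adjusted p under 0.05, with *UPF2* at 1.21 and *SMG1* at 0.74. The share of genes that passed in that fit was 14% over all and 30.4% over the 6037 abundant ones.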

How the data were processed

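RNA of 6 MV4-11 libraries, 3 shNC and 3 shATGL, was sequenced. FASTP was used to discard reads of low quality, and the authors deposited raw counts per gene, without normalization. The aligner, the counting tool and its strand setting are not given in the sources used here, and the submitters' processing notes name the build mm10 although every row has a human identifier. The labels and the study's methods describe the RNA isolation and library preparation differently.

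Counts of the 19149 genes kept by filterByExpr (minimum count 10, total 15) were compared with edgeR 4.0.16 (TMM, quasi-likelihood test, no block) in R 4.3.3, with Benjamini-Hochberg adjustment over all of them. CPM are over normalized library sizes. Genes were called at a fold change of 2 or more with an adjusted p under 0.05. Alternatives used DESeq2 1.42.0, limma 3.58.1, other size factors and filters, a replicate block, each library left out, and splines with 4 degrees of freedom for length and GC. Positions and lengths are from GENCODE 29. Scripts were tested on simulated data.

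The members and gene lists were chosen with earlier results of these data known. All 34 members are accounted for. Values per library were set for members at unadjusted p under 0.05, the extremes of level and the most variable member of each class, and 7 well-known members, and up to 4 genes with the smallest p-value are named of each other list. Values per library of other members and genes were added after they were seen.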

Additional observations from a re-analysis of the deposited data

How the results depend on the processing

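The count of members called at a fold change of 2 or more was 0 in every fit that was run. Members with an adjusted p under 0.05 numbered 0 in edgeR and 10 in limma voom with quality weights, and from 0 to 16 when single libraries were left out, the 16 without shATGL 3. Members at an unadjusted p under 0.05 numbered 3 in edgeR, 5 in DESeq2 and 21 in voom, and from 2 to 23 when single libraries were left out, 23 without shATGL 3. The shares over all genes were 11.7% in edgeR, 30.6% in voom and 28.8% without shATGL 3. In DESeq2 the share was 7.02% over 31959 genes, low counts included. Over the 6037 abundant genes the shares were 18% in edgeR, 49.4% in voom and 53% without shATGL 3. With length and GC trends corrected and without shATGL 3, an alternative chosen after seeing the data, the adjusted count was 18, against 17.2% of all genes. The unadjusted count was 21, against 30.3% of all genes, and neither share was taken over the abundant genes. The cause was not tested. The median log2 fold change of the members stayed between -0.04 and -0.02 with single libraries left out.

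Libraries with the same replicate number were not treated as pairs in the main fit. The correlation of their deviations over 13874 genes was 0.02, 0.16 and 0.24 for the numbers 1, 2 and 3. For the numbers 2 and 3 this was the highest correlation of the shATGL library with any shNC library. In contrast, shATGL 1 correlated better with shNC 2 (0.14) than with shNC 1. Whether libraries of the same number shared a batch was not tested. With the replicate number as a block, 11 members had an unadjusted p under 0.05, against 17.3% of all genes, and 0 an adjusted one.

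The fold changes that turned sign were small in the main fit, such as 0.09 for *HNRNPU* and 0.08 for *HNRNPH3*. Not all stayed small in other fits. Without shATGL 3, *HNRNPH3* was at 0.27 (edgeR adjusted p = 0.0208) and *HNRNPU* at 0.16 (edgeR adjusted p = 0.0448). In voom *HNRNPA1*, *HNRNPDL* and *HNRNPR* were at 0.10, 0.043 and 0.024, and with at least 10 counts in every library *HNRNPA1* was at 0.0012. With length and GC corrected *HNRNPH3*, *HNRNPM*, *HNRNPU* and *CLK3* were at -0.014, 0.0069, -0.082 and 0.050, and with shATGL 3 also left out *HNRNPM*, *HNRNPU* and *CLK3* were at 0.055, -0.12 and 0.063. With single libraries left out the ranges that crossed 0 were -0.068 to 0.068 for *HNRNPDL*, -0.045 to 0.051 for *HNRNPR*, -0.10 to 0.13 for *HNRNPA1*, -0.041 to 0.037 for *CLK3*, -0.0098 to 0.16 for *TRA2A*, -0.041 to 0.27 for *HNRNPH3*, -0.13 to 0.0038 for *PTBP1* and -0.0023 to 0.20 for *HNRNPH2*. Levels per length moved with exon-union length for 32 of 34 members.

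Each member had at least 1288 counts in every library, and 3 libraries against 3 allow no exact permutation p under 0.1. The build and the counting rules behind the table are not known, and isoforms were not analysed here.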

Other observations

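Some long nuclear RNAs and heat shock genes were, like *HNRNPH1*, highest in shATGL 1 and 2, while their place in shATGL 3 differed. *MALAT1*, a speckle-associated RNA to which SR proteins bind, was at 82.3, 100.03 and 69.9 CPM in shNC, at 180.3 and 189 CPM in shATGL 1 and 2, and at 98.3 CPM in shATGL 3. *NEAT1*, the scaffold of paraspeckles, was at 94.6, 105 and 84.0 CPM in shNC, at 162 and 154 CPM in shATGL 1 and 2, and at 96.8 CPM in shATGL 3. Of the 7 nuclear long RNAs tested, 3 were higher at an unadjusted p under 0.05, against 5.77% of all genes. They were *MALAT1* (log2 fold change 0.89), *KCNQ1OT1* (0.57) and *NEAT1* (0.54), each with an edgeR adjusted p of 0.392. Without shATGL 3 these 3 had an edgeR adjusted p under 0.05, with *MALAT1* at 1.13 and *NEAT1* at 0.74. So did 14% of all genes and 30.4% of the 6037 abundant genes.

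Of 14 heat shock genes, 1 was lower at an unadjusted p under 0.05, against 5.94% of all genes. It was *HSPE1* (log2 fold change -0.33, standard error 0.07, edgeR adjusted p = 0.392). *HSP90AA1*, an inducible chaperone gene, was at 802, 884 and 752 CPM in shNC, at 1482.5 and 1415.5 CPM in shATGL 1 and 2, and at 660.02 CPM in shATGL 3. In shATGL 3 it lay below every shNC library. Its log2 fold change was 0.55 over 6 libraries (edgeR adjusted p = 0.466) and 0.83 without shATGL 3 (edgeR adjusted p = 0.000496). Without shATGL 3, 4 heat shock genes were higher at an edgeR adjusted p under 0.05, *HSP90AA1*, *HSPH1* (0.72), *HSPA4* (0.33) and *HSPD1* (0.25), and *HSPE1* was lower (-0.32). Beside these counts stand 14% of all genes and 30.4% of the 6037 abundant genes in that fit. Of 15 immediate early genes, 1 was higher at an unadjusted p under 0.05, against 5.77% of all genes. It was *ATF3*, at under 2 CPM in mean in both groups. Without shATGL 3, 1 was lower at an edgeR adjusted p under 0.05, *JUND* (-0.24), against 6.07% of all genes. The part of these genes' states in the levels of the splicing regulators was not tested.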
